A study of Homo sapiens with 15 samples.

Results

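Open chromatin was compared between cells carrying a pair of guide RNAs (gRNAs), Cr4 and Cr10, that were aimed at the same enhancer, HS2, with a dCas9 that carries no repressor domain. The libraries were chosen by their titles: 3 of dCas9 with Cr4 and 3 of dCas9 with Cr10, 6 of the 15 libraries of the series. All libraries came from K562, a human erythroleukemia cell line, transduced with a lentivirus for stable expression and selected with 1 µg/ml puromycin from about 96 h after transduction, in the presence of 4 µg/mL polybrene during transduction. Serum was 10% for all of them. The other 9 libraries were 3 of dCas9-KRAB with Cr4, 3 of dCas9-KRAB with Cr10 and 3 of dCas9-KRAB without a gRNA. No library of dCas9 without a gRNA was analysed here, so the only cells without a gRNA carry the KRAB fusion. One label field names HS2 as a gRNA target for that group too, and the groups followed the titles and the design text. Transduction in triplicate is stated for the study, but nothing says that the numbered libraries were separate cultures; p-values therefore rest on the variation among these libraries alone, and that variation may be technical.

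HS2 is a DNase I hypersensitive site of the beta-globin locus control region, a group of erythroid enhancers upstream of HBE1, the embryonic globin gene of the cluster. Its core binds erythroid factors such as GATA1 and NF-E2, and it loops to whichever globin gene is active at a stage of development. Catalytically dead Cas9 (dCas9) opens DNA over the stretch matched by its gRNA and sits there without cutting, so it can cover the DNA it occupies; the KRAB domain adds recruitment of co-repressors and histone methyltransferases. In an assay of nuclease cutting, a site that opens to the enzyme gives a peak of fragments, and the summit of the peak is the base with most fragments. The target positions of Cr4 and Cr10 within HS2 were not used here.

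The lists differed in length within each gRNA. They held 68466, 70764 and 86931 peaks with Cr4 (replicates 1, 2 and 3) and 53147, 67341 and 94777 peaks with Cr10. Replicate 3 was the longest list of both groups, and replicate 1 of Cr10 the shortest of all 15. Fragment totals were not among the sources. As an indirect sign of depth, the local background implied at the quietest 1% of peaks was 3.55, 3.07 and 5.09 fragments with Cr4 and 2.24, 3.22 and 5.60 fragments with Cr10, so it followed the order of list length except in Cr4 replicate 2. To compare lists of unequal length, peaks of the autosomes and the X chromosome were ranked by the authors' fold enrichment and each list was shortened to its 53098 strongest peaks. This kept 77.6%, 75.1% and 61.1% of the peaks with Cr4 and 100%, 78.9% and 56.1% with Cr10. The weakest peak kept had a fold of 4.39, 4.86 and 4.92 with Cr4, against 1.97, 4.47 and 4.97 with Cr10, so only the shortest list contributed peaks below a fold of 4.39.

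Lists of the same gRNA were on average no more alike than lists of different gRNAs. The Jaccard index, the bases covered in both lists over the bases covered in either, averaged 0.717 among the 3 pairs of Cr4 lists (0.703 to 0.738), 0.653 among the 3 pairs of Cr10 lists (0.608 to 0.697) and 0.697 among the 9 pairs of a Cr4 with a Cr10 list (0.638 to 0.763). The most alike pair of the 15 was Cr4 replicate 3 with Cr10 replicate 3, the longest list of each gRNA, and the least alike pair was Cr10 replicate 1 with Cr10 replicate 3, the shortest and the longest. The median SD of the rank percentile over regions was 7.10 points with Cr4 and 8.30 points with Cr10. The part of depth in this similarity was not tested.

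**Figure D1:**
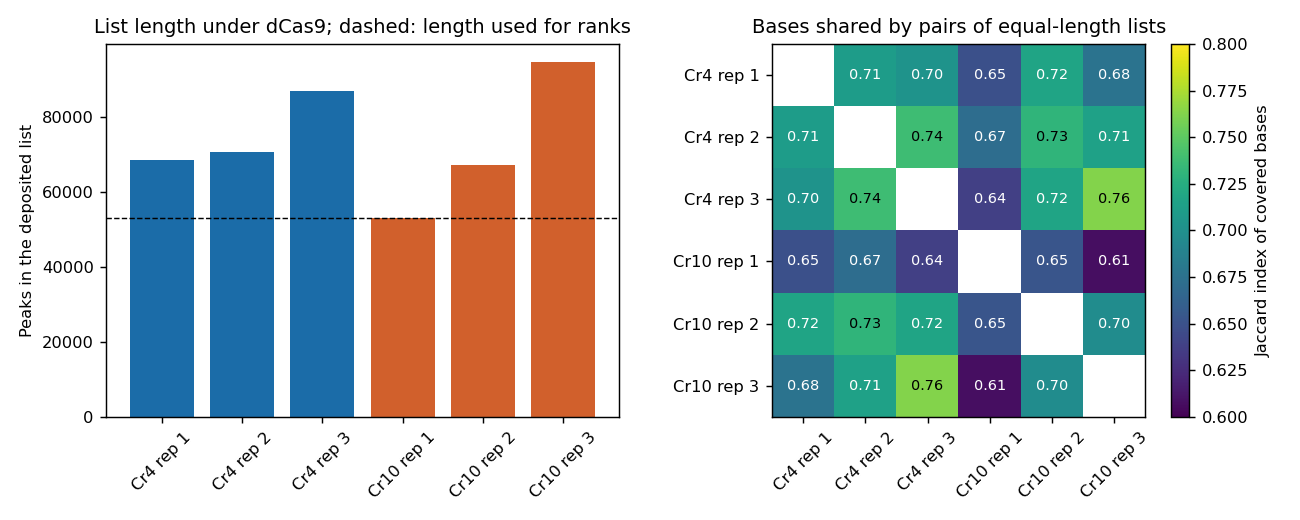
Left, number of peaks in each deposited list for dCas9 with Cr4 (blue) and dCas9 with Cr10 (orange); the dashed line marks the 53098 peaks kept for ranks. Right, Jaccard index of covered bases for each pair of equal-length lists, from 0.608 for Cr10 replicates 1 and 3 to 0.763 for Cr4 replicate 3 with Cr10 replicate 3.

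The HS2 peak was present in all 6 lists, and its extent was similar with either gRNA. In hg19 coordinates on chromosome 11 it ran from 5301771 to 5302198, from 5301777 to 5302184 and from 5301778 to 5302200 in replicates 1, 2 and 3 of Cr4. With Cr10 it ran from 5301775 to 5302196, from 5301769 to 5302212 and from 5301792 to 5302188. These widths were 428, 408 and 423 bp with Cr4 and 422, 444 and 397 bp with Cr10, and the ranges overlap: the narrowest and the widest peak both belong to Cr10. The mean width was 420 ± 10.4 bp with Cr4 and 421 ± 23.5 bp with Cr10 (SD, n = 3 each), a difference of −1.33 bp (exact permutation test, two-sided, p = 1, where 3 against 3 cannot give less than 0.1). Without a gRNA the peak was 432 ± 22.9 bp wide. On the log2 scale, with each library centred on its own median, the difference of width was −0.03 (limma SE 0.15), a Cr4 to Cr10 ratio of 0.980 with a 95% interval of 0.787 to 1.22. A change of width inside that interval could not be detected with these libraries.

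**Figure D2:**
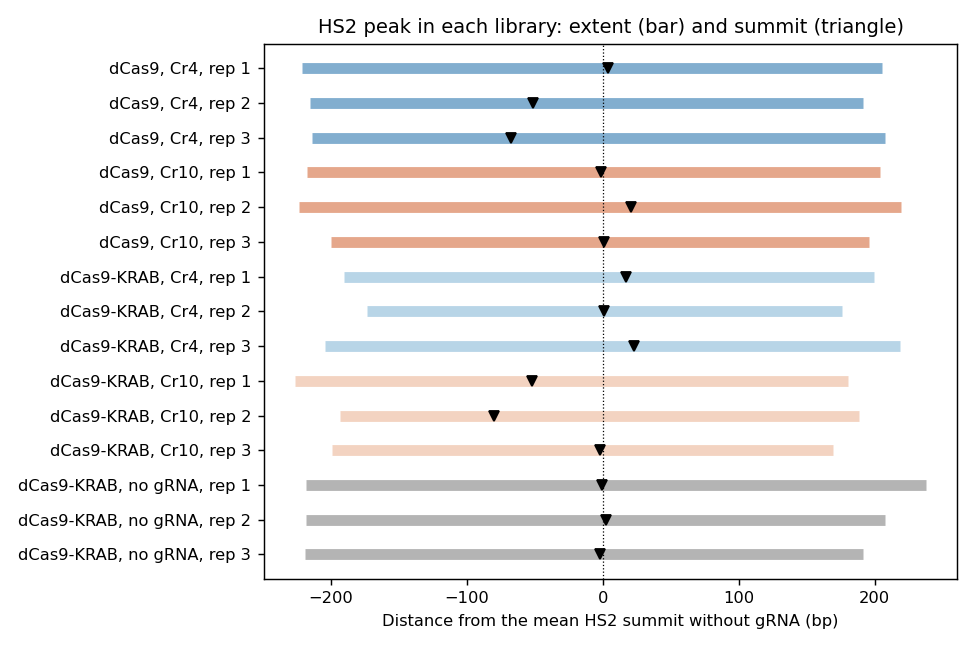
HS2 peak of each of the 15 libraries: the bar is the extent of the peak, the triangle its summit, and the x axis the distance in bp from the mean summit without a gRNA (dotted line). Widths run from 350 to 457 bp over the 15 libraries; the summits of dCas9 with Cr4 replicates 2 and 3 lie 51.3 and 67.3 bp to the left of the line and the 3 summits of dCas9 with Cr10 lie within 20.7 bp of it.

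The strength of the HS2 peak did not separate the gRNAs. Its fold enrichment, the authors' ratio of the summit to its local background, was 9.67, 7.97 and 7.17 with Cr4 and 9.05, 11.7 and 7.49 with Cr10. Rank percentiles give 100 to the strongest peak of a shortened list and 0 where that shortened list holds no peak. The HS2 percentiles were 74.9, 52.4 and 44.6 with Cr4 and 69.3, 84.2 and 49.9 with Cr10. Each gRNA thus had a library near 45 to 50 points and one near 75 or above, and in both groups the lowest was replicate 3, the longest list. The means were 57.3 ± 15.7 with Cr4 and 67.8 ± 17.2 with Cr10, against 66.2 ± 9.18 without a gRNA (SD, n = 3 each). The difference of −10.5 points had a limma SE of 12.1 and a 95% interval of −36.2 to 15.2, and its adjusted p was 1.00 in limma's fit over all regions. The exact permutation test gave p = 0.6. Differences at least as large were found at 19.2% of the 62858 regions tested.

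A second measure of strength, the number of fragments at the summit, was recovered from the fold and the p-value of each peak and is called the implied summit pileup. It was 123, 95 and 130 fragments with Cr4 and 81, 99 and 160 fragments with Cr10. The lowest and the highest value were both from Cr10, in its shortest and longest list. The local background under the peak was 11.8, 11.04 and 17.3 fragments with Cr4 and 8.06, 7.56 and 20.5 fragments with Cr10, highest in replicate 3 of both gRNAs and lowest in Cr10 replicate 2. After each library was centred on its median over the 38888 regions present in all 15 lists, log2 of the pileup plus 1 at HS2 was 0.78, 0.40 and 0.38 with Cr4 and 0.87, 0.36 and 0.47 with Cr10. Replicate 1 was the highest library of each group on this scale. The means were 0.52 ± 0.23 with Cr4, 0.57 ± 0.27 with Cr10 and 0.85 ± 0.34 without a gRNA (SD, n = 3 each). The Cr4 to Cr10 ratio was 0.968 with a 95% interval of 0.738 to 1.27, and the exact permutation test gave p = 0.7.

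**Figure D3:**
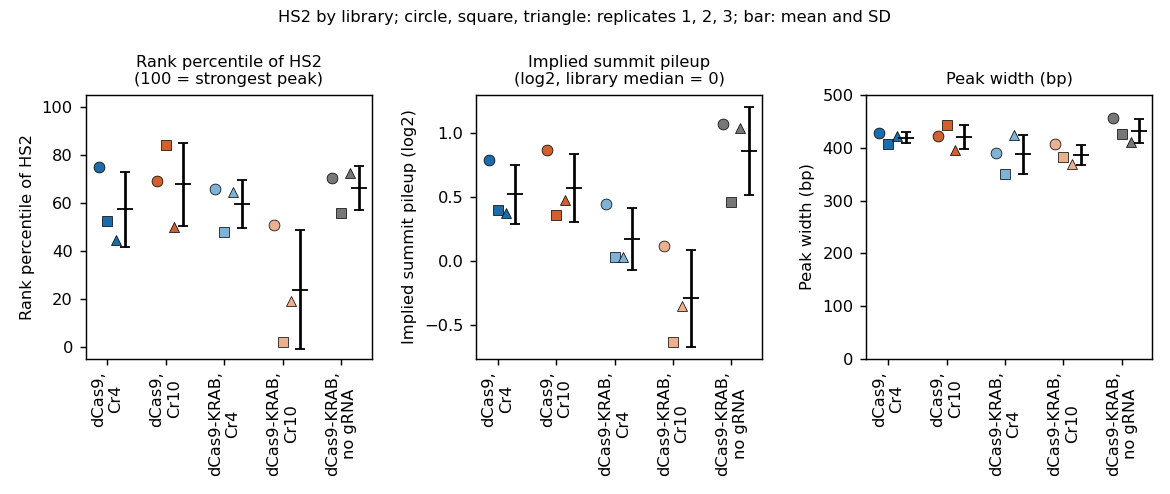
Rank percentile, centred implied summit pileup (log2) and width (bp) of the HS2 peak for each library, by group; circles, squares and triangles are replicates 1, 2 and 3, and the bar gives the mean and SD. The values of dCas9 with Cr4 and of dCas9 with Cr10 overlap in all 3 panels, as in the rank panel with 44.6 to 74.9 against 49.9 to 84.2.

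Of the 4 measures at HS2, the summit position had the lowest unadjusted p, and its shift was not seen in every library. The summit base was 5301996, 5301941 and 5301925 with Cr4 and 5301991, 5302013 and 5301993 with Cr10. Without a gRNA it was 5301992, 5301995 and 5301990, within 5 bp of each other. Relative to the mean without a gRNA the summits lay at 3.67, −51.3 and −67.3 bp with Cr4, and at −1.33, 20.7 and 0.667 bp with Cr10, where negative is toward lower coordinates, the side of HBE1. Cr4 replicates 2 and 3 were thus shifted away from all other libraries of dCas9, while Cr4 replicate 1 fell among the Cr10 summits, so the groups overlap. The mean difference was −45 bp (limma SE 19.4, 95% interval −87.2 to −2.76), with an unadjusted limma p of 0.0387 and an adjusted p of 1.00 over all regions. That interval rests on a variance shared by all 5 groups, whose HS2 summit SDs ran from 2.52 to 39.5 bp. In a fit of the 6 dCas9 libraries alone the unadjusted limma p was 0.060. The exact permutation test gave p = 0.3. HS2 held place 1119 of 38888 regions by the p of the summit shift, and 5.47% of regions had a shift at least as large.

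Within Cr4 the HS2 summits spread over 71 bp, a range reached by 8.74% of regions. Within Cr10 they spread over 22 bp, a range reached by 56.6% of regions. Over all regions the median range was 23 bp with Cr4 and 25 bp with Cr10. The spread at HS2 with Cr4 was therefore wider than at most regions, and that with Cr10 was near the median. The mean start differed by −3.33 bp and the mean end by −4.67 bp between Cr4 and Cr10 (exact permutation tests, two-sided, p = 0.9 and 0.7). Since a peak's summit is a single base taken from a broad top, its value was used as given and no profile of fragments across HS2 was analysed.

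The mean summits of the same pair of gRNAs lay in the opposite order when dCas9 carried KRAB, though with dCas9 the groups overlapped. The summits lay at 16.7, 0.667 and 22.7 bp with dCas9-KRAB and Cr4, and at −52.3, −80.3 and −2.33 bp with dCas9-KRAB and Cr10, on the same scale. The implied summit pileup of these HS2 peaks was 97, 57 and 113 fragments with Cr4 and 66, 44 and 53 fragments with Cr10. Rank percentiles with dCas9-KRAB and Cr10 were 50.6, 1.91 and 19.0. The summit at −80.3 bp belonged to the peak of 44 fragments, the weakest of them. Cr4 minus Cr10 was −45 bp with dCas9, against 58.3 bp with dCas9-KRAB. The difference between these differences was −103 bp (limma SE 27.4), with an exact permutation p of 0.025 over 400 arrangements of the labels within each protein. Adjusted over the 4 measures tested at HS2 the exact p was 0.1, and limma's p adjusted over all regions was 1.00. This test of the summit was added after the summits had been seen. In rank percentiles the gRNA difference was −10.5 points with dCas9 and 35.7 points with dCas9-KRAB, a difference of −46.1 points (limma SE 17.1, exact permutation p = 0.07, limma adjusted p = 1.00). For pileup and width the exact permutation p of the same contrast was 0.195 and 0.785.

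Across the beta-globin cluster most open sites were shared by both gRNAs. The 6 lists held 16 regions in the cluster, 12 of them in all 6 lists, where 40.2% of regions genome-wide were in all 6. A region at chr11:5264277-5264511 had a peak in 2 Cr10 lists (fold 3.56 in replicate 1 and 2.89 in replicate 3) and in 0 Cr4 lists. A peak in 3 lists of one gRNA and in 0 of the other was found at 0 of the 16 regions and at 0.216% of regions genome-wide, too small a share for the count in the cluster to say anything about it. Of 11 windows drawn around the hypersensitive sites and globin promoters, 9 held a peak in every list: HS1 to HS5 of the locus control region, 3′ HS1 at the far end of the cluster, the promoters of HBG2 and HBG1, the fetal globin genes, and that of HBD, the minor adult globin gene. Open HS1 to HS5 are known from erythroid cells, the lineage of K562, and no further cell type markers could be looked up in these lists without gene positions. The window of the promoter of HBB, the adult beta-globin gene, held no peak in any of the 15 lists. That window does not cover the whole gene. Outside all windows, chr11:5245771-5246501 (fold 4.84 to 7.56) and chr11:5246795-5247127 (fold 5.39 to 7.79) had a peak in all 6 lists. Neither was assigned to a gene, so absence of open sites at HBB cannot be read from the empty window. The window of HBE1 held a peak in Cr4 replicate 2 (fold 4.51, pileup 21), in Cr4 replicate 3 (fold 3.72, pileup 25) and in Cr10 replicate 3 (fold 6.22, pileup 52), and in 1 library without a gRNA. The HBE1 peak thus occurred with both gRNAs and not in every replicate of either.

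None of the 9 sites passed the threshold of limma's adjusted p, and 0 of 9 had groups that did not overlap, in rank, pileup, width or summit. Among all regions the groups did not overlap at 5.98% in rank, 4.72% in pileup, 6.11% in width and 8.32% in summit, so a count of 0 among 9 is near the background. Rank differences of the 9 sites ran from −10.5 points at HS2 to 5.96 points at HBD. Without Cr4 replicate 1 the difference at HBD was 3.35 points. HS1, the site nearest to HBE1, had percentiles of 13.4, 36.2 and 63.1 with Cr4 and 44.7, 29.3 and 67.6 with Cr10. Its libraries differed more within each gRNA than between them, with means of 37.6 ± 24.9 and 47.2 ± 19.3 (SD, n = 3 each) for Cr4 and Cr10. HS3, the neighbour of HS2 in the locus control region, had 57.2, 70.1 and 42.6 with Cr4 and 53.0, 47.8 and 60.0 with Cr10. HS4 had 42.3, 28.6 and 59.3 with Cr4 and 43.9, 48.4 and 44.8 with Cr10, so its Cr10 values lay inside the Cr4 range. HS5, at the outer end of the region, was the lowest of the 9 with means of 24.7 ± 9.71 with Cr4 and 31.8 ± 12.6 with Cr10.

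The promoters of the fetal globin genes were as close. HBG2 had mean percentiles of 57.6 ± 5.48 with Cr4 and 58.3 ± 9.36 with Cr10, and HBG1 had 50.9 ± 4.43 with Cr4 and 52.8 ± 5.35 with Cr10 (SD, n = 3 each). HBG1 and HBG2 are near-identical copies, so fragments may be split between them and both values are uncertain. HBD had percentiles of 85.8, 78.2 and 77.7 with Cr4, against 73.2, 79.1 and 71.5 with Cr10. Cr10 replicate 2 lay above the lower pair of Cr4 libraries there, and the exact permutation test gave p = 0.3. By rank percentile the strongest site of the cluster was 3′ HS1, with means of 86.5 ± 9.26 with Cr4 and 86.7 ± 9.10 with Cr10. In centred log2 pileup the means of 3′ HS1 were −0.0023 with Cr4 and 0.0114 with Cr10, below the 0.52 and 0.57 of HS2. HBG1 had the next largest summit difference after HS2, with summits at 5271195, 5271195 and 5271193 with Cr4 and at 5271146, 5271145 and 5271195 with Cr10. The Cr10 libraries fell at both of the positions seen, so the groups overlap, and the difference of 32.3 bp (limma SE 15.4) had an exact permutation p of 0.4. Without Cr10 replicate 3, the library at the Cr4 position, it was 48.8 bp (SE 14.2, limma adjusted p 0.933 to 1.00 over the libraries left out).

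**Figure D4:**
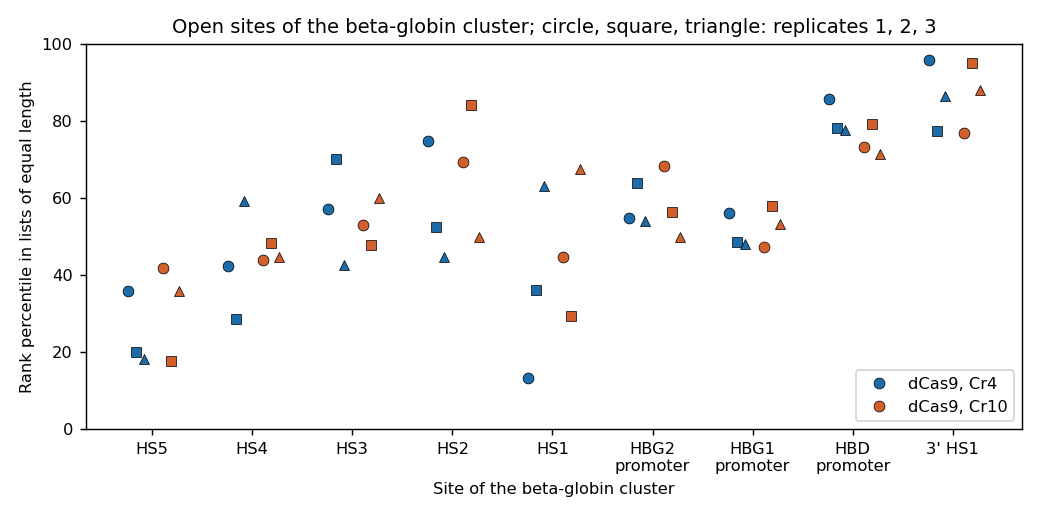
Rank percentile of the 9 sites of the beta-globin cluster with a peak in all 6 lists, from HS5 at the outer end of the locus control region to 3′ HS1, for dCas9 with Cr4 (blue) and dCas9 with Cr10 (orange); circles, squares and triangles are replicates 1, 2 and 3. Colours overlap at each of the 9 sites, and the means differ by −10.5 points at HS2 to 5.96 points at HBD.

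Over the genome no region differed in strength or width past the threshold. In rank percentile 0 of 62858 regions (0%) passed an adjusted p of 0.05 in limma, and 1920 regions (3.05%) had an unadjusted p under 0.05, 1050 of them higher and 870 lower with Cr4. In centred pileup 0 of 38888 regions (0%) passed in limma, and 400 (1.03%) had an unadjusted p under 0.05. In width 0 of 38888 regions (0%) passed in limma, and 1109 (2.85%) had an unadjusted p under 0.05. Where no region differs, a share of 0.05 would have an unadjusted p under 0.05, and each share found was lower. The groups did not overlap at 3760 regions in rank (5.98%), at 1836 in pileup (4.72%) and at 2375 in width (6.11%). Labels without meaning on 3 against 3 libraries, without ties, would keep groups apart at a share of 0.1, above each of these. In rank, 1948 of the non-overlapping regions were higher (3.1%) and 1812 lower (2.88%) with Cr4. In pileup, 940 were higher (2.42%) and 896 lower (2.3%), and in width 1255 were wider (3.23%) and 1120 narrower (2.88%) with Cr4.

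The regions with the lowest p in rank were mostly of low to middle rank with one gRNA and near or at 0 with the other. A percentile of 0 means no peak among the 53098 strongest of a list, and the deposited list may still hold one. The lowest p belonged to chr6:123190648-123190889, with percentiles of 24.6, 34.7 and 29.4 with Cr4 and of 0, 0 and 5.23 with Cr10, a difference of 27.8 points (limma SE 4.83, adjusted p 1.00). The other 4 named regions higher with Cr4 were chr12:26182166-26182467 (36.1 points), chr8:82553752-82554033 (43.5), chr5:145282703-145283006 (34.0) and X:133160782-133161044 (19.9). In these 5 regions all Cr10 values lay between 0 and 5.88 points. Lower with Cr4 was chr11:118223893-118224180, on the same chromosome as HS2, with 0 in all 3 shortened Cr4 lists and 36.6, 44.5 and 21.7 with Cr10. A region open in all 15 libraries, chr3:49466407-49466930, was lower with Cr4 by a smaller step, at 73.7, 79.9 and 85.0 with Cr4 and 92.5, 92.8 and 91.4 with Cr10. Its difference of −12.7 points had an SE of 2.93 and a limma adjusted p of 1.00. The remaining regions named lower were chr1:247996938-247997263 (−32.2 points), chr5:14901549-14902150 (−24.5) and chr1:173405173-173405505 (−29.2), all with a limma adjusted p of 1.00. Regions were not assigned to genes, because no annotation on hg19 was used here.

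In pileup, the region of lowest p was chr17:77819241-77819792, with centred log2 values of −0.44, −0.06 and 0.21 with Cr4 and 0.44, 0.42 and 0.49 with Cr10. Its difference was −0.55 (limma SE 0.15, adjusted p 1.00), and the 3 Cr10 values lie close together above a wide Cr4 range. The largest difference among the 10 regions named for pileup was 0.80 (SE 0.25) at chr19:41156162-41156554. In width, chr11:61152215-61152894 had the lowest p, with a difference of 0.55 on the log2 scale (limma SE 0.10, adjusted p 1.00). At chr22:29964878-29965483 the peak was wider with Cr4, with centred values of 0.55, 0.49 and 0.45 with Cr4 and −0.34, −0.28 and −0.42 with Cr10, a difference of 0.84 (limma SE 0.16, adjusted p 1.00). Groups that did not overlap in width, by a gap of any size, occurred at 6.11% of regions, as given above.

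Summits were placed almost identically with both gRNAs. The mean summits differed by at most 10 bp at 21969 of 38888 regions (56.5%) and by more than 100 bp at 913 regions (2.35%). In limma 1 region passed an adjusted p of 0.05 (0.00257%), and 1504 (3.87%) had an unadjusted p under 0.05. The groups did not overlap at 3236 regions (8.32%), of which 1663 lay at higher (4.28%) and 1573 at lower (4.04%) coordinates with Cr4.

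The region that passed was chr15:67442434-67443128. Its summits were at 67442900, 67442946 and 67442864 with Cr4 and at 67442582, 67442613 and 67442582 with Cr10, so the groups lay apart by a gap far wider than either. The difference was 311 bp (limma SE 21.1, adjusted p = 0.000159). The region held a pair of tops, and the libraries differed in which was the stronger. Distances from the start of the region were 466, 512 and 430 bp with Cr4 and 148, 179 and 148 bp with Cr10. In Cr4 replicates 1 and 2 the other top was a separate peak at 149 bp with only a slightly lower fold, 3.88 against 4.39 and 4.63 against 5.29. In Cr10 replicate 3 the other top was at 551 bp, with a fold of 3.94 against 3.98. The peaks were weak, with a summit pileup of 40, 36 and 42 fragments with Cr4 and 19, 35 and 48 fragments with Cr10. With the mean of all summits of the region in place of the strongest, the difference was 130.5 bp and the limma adjusted p was 1.00, so the call rests on the choice of the strongest top. All 6 libraries of dCas9-KRAB with a gRNA had the top near the start, at 150, 138 and 168 bp with Cr4 and 163, 175 and 159 bp with Cr10. The libraries without a gRNA had it at 444, 512 and 444 bp, on the side of dCas9 with Cr4.

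Other named summit shifts did not pass in the fit of all 15 libraries. The next was chr1:65774787-65775343, at 65775119, 65775141 and 65775127 with Cr4 and 65775044, 65775061 and 65775043 with Cr10. The shift of 79.7 bp (SE 10.3) had a limma adjusted p of 0.0975. At chr11:120381716-120382607 the shift was 431 bp (SE 89.2, limma adjusted p 1.00), with Cr4 summits at 120382408, 120382414 and 120382403 and Cr10 summits at 120381988, 120381962 and 120381983. In a fit of the 6 dCas9 libraries alone its SE was 9.17 bp and its adjusted p was 3.47e-05 in limma. The shift of 116 bp at chr1:29157300-29157744 also passed in that fit (limma adjusted p 0.0392), against an adjusted p of 1.00 with all 15. Toward lower coordinates the lowest p was at chr4:99760264-99760869, with a shift of −53.7 bp (SE 9.83, limma adjusted p 1.00). The 5 named shifts toward lower coordinates ran from −95 to −41.7 bp.

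**Figure D5:**
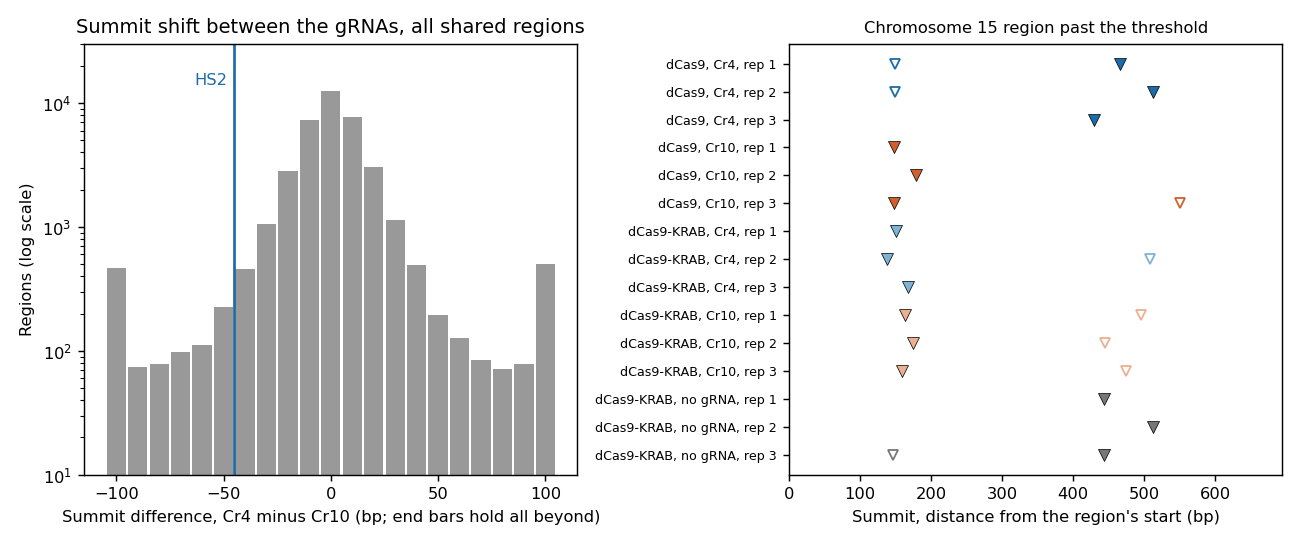
Left, number of regions (log scale) by the summit difference, Cr4 minus Cr10, in bp; the line marks HS2 at −45 bp and the end bars hold all larger shifts. Right, distance in bp of the strongest summit (filled) and of a separate further peak's summit (open) from the start of the chromosome 15 region in each library, with 430 to 512 bp for dCas9 with Cr4 and 148 to 179 bp for dCas9 with Cr10.

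Presence of peaks told the gRNAs apart at few regions. The 6 deposited lists merged into 109052 regions, of which 43888 (40.2%) held a peak in all 6. A peak in 3 Cr4 lists and in 0 Cr10 lists was found at 191 regions (0.175%), and a peak in 3 Cr10 lists and in 0 Cr4 lists at 45 regions (0.0413%), together 236 (0.216%). List length moved with these counts. Cr10 replicate 1, the shortest list, was the only list without a peak at 7304 regions, while Cr10 replicate 3, the longest, was the only list with a peak at 12241 of the 24587 regions seen once. In equal-length lists the counts were 183 of 70370 regions (0.26%) for Cr4 and 149 (0.212%) for Cr10. Without Cr10 replicate 1 the deposited lists gave 203 regions with peaks in all Cr4 lists alone and 1038 in all Cr10 lists alone; without Cr10 replicate 3 they gave 2260 and 65. The excess of Cr4 regions in the deposited lists was thus turned round by leaving out 1 library. Without Cr10 replicate 2 the counts were 331 for Cr4 and 250 for Cr10, without Cr4 replicate 3 they were 381 and 319, without Cr4 replicate 1 they were 768 and 69, and without Cr4 replicate 2 they were 848 and 86. Leaving out a library lowers the number of lists that must hold a peak, which by itself adds regions.

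The regions held by one gRNA alone were mostly weak. Their median mean fold was 4.45 for the Cr4 regions and 4.37 for the Cr10 regions, against medians over all peaks of 6.12, 6.56 and 5.68 in the Cr4 lists and 7.12, 6.40 and 5.38 in the Cr10 lists. The strongest with Cr4 alone was chr8:82553752-82554033, with folds of 6.15, 8.11 and 6.90, and it also had a peak in 4 of the other 9 libraries. It was followed by chr10:32479797-32480139 (mean fold 6.48), chr3:69720300-69720567 (6.43), chr5:145282703-145283006 (6.37) and chr5:121751253-121751529 (6.30). The strongest with Cr10 alone was chr14:100589178-100589461, with folds of 8.02, 4.75 and 5.33, and a peak in 3 of the other 9 libraries. After it came X:40666096-40666403 (mean fold 5.64), chr14:67511302-67511505 (5.62), chr1:187020805-187021087 (5.44) and chr11:114188536-114188765 (5.41). Each of these 10 regions had a peak in 2 to 6 of the 9 libraries of dCas9-KRAB, so none of them was confined to dCas9 with its gRNA.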

How the data were processed

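Nuclease-digested nuclei of 15 K562 libraries were deposited as 1 peak list each in narrowPeak layout on hg19. Per the submitters' processing notes, CASAVA 1.3, BWA and bedtools were used. Peak names carry the MACS prefix, but caller, threshold and fragment totals are not stated in the sources. The deposited fold column is a ratio of the summit to the local background of its library, by the authors. The deposited p-value and q-value columns hold −log10 of each p-value or q-value. The deposited score is a whole number that follows the −log10 q-value and was not used for tests. Starts, ends and summit offsets were used as deposited and are printed 1-based.

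Groups follow the titles. Peaks overlapping by at least 1 bp in the equal-length lists were merged into 78352 regions, and the 62858 seen in 3 or more libraries were tested. Deposited lists merged into 120992 regions, and pileup, width and summit used the 38888 with a peak in all 15. Each region was represented by its strongest peak. The implied summit pileup k is the whole number that meets fold = (k + 1)/(λ + 1) and the Poisson p-value given the background λ; it was found within 0.01 for 100% of peaks in each list. limma fitted all 15 libraries in 5 groups by least squares. Its moderation of variances used a mean-variance trend for rank, pileup and width and was robust for summits, while the summit means themselves were not fitted robustly. Tests were two-sided, p-values were adjusted by Benjamini and Hochberg, and the threshold was 0.05. Single values were also tested by exact permutation. Scripts were tested on simulated data.

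Named are HS2, the 11 globin windows, regions past the threshold (up to 10 in each direction) or otherwise the 5 of lowest p in each direction, and the 5 of highest mean fold held by 1 gRNA alone; for pileup and width the leading ones are given. The members, windows and tests were chosen with earlier results of these data known. Windows rest on recalled hg19 positions without a check against any annotation. Alternatives changed list length, ranking, filters, overlap, centring, limma settings, the replicate block and the libraries included. Some loci may not be reported here. Analyses used R 4.3.3 with limma 3.58.1 and Python 3.11.15 with numpy 2.4.6, pandas 2.3.3, scipy 1.17.1 and matplotlib 3.10.9.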

Additional observations from a re-analysis of the deposited data

Results flagged for a closer look

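At HS2 the mean summit difference between the gRNAs had opposite signs with the 2 proteins. With dCas9 the groups overlapped, and with dCas9-KRAB the summit farthest from the mean without a gRNA (−80.3 bp) came from a peak of 44 fragments. The difference between Cr4 and Cr10 with dCas9, less that with dCas9-KRAB, was −103 bp (exact permutation p = 0.025 over 400 arrangements, 0.1 adjusted over 4 measures, chosen after the summits had been seen). Cr4 minus Cr10 was −45 bp with dCas9 and 58.3 bp with dCas9-KRAB.

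At chr15:67442434-67443128 the same contrast of summits was 325 bp, with a limma adjusted p of 0.00496. Here the pair of groups with dCas9 differed by 311 bp while both groups of dCas9-KRAB with a gRNA used the top near the start of the region. The libraries of dCas9-KRAB without a gRNA had the strongest summit at 444, 512 and 444 bp, on the side of dCas9 with Cr4. The choice between the tops rested on folds as close as 3.98 and 3.94 in 1 library.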

How the results depend on the processing

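At HS2 no alternative gave an adjusted p under 0.05 for rank, pileup, width or summit. Leaving out 1 library at a time moved the rank difference between −19.4 and −2.26 points and the summit difference between −66 and −30.5 bp, with the exact permutation p between 0.1 and 0.4 for the summit. It moved the log2 pileup difference between −0.18 and 0.10 and the log2 width difference between −0.19 and 0.0919, so both changed sign, and without centring the pileup difference was 0.0801. The rank contrast between dCas9 and dCas9-KRAB stayed between −59.5 and −35.2 points, with an exact permutation p between 0.03 and 0.135, and gave −103 bp for summits. Regions past the threshold numbered 0 to 2 in rank, 0 to 3 in width and 2 to 6 in summit with 1 library left out, against 0, 0 and 1. Widths gave 3 without Cr4 replicate 2 and 1 each without Cr10 replicates 1 and 2; summits gave 2 without Cr10 replicate 1, 6 without Cr10 replicate 3 and 5 without each other library. The 2 in rank appeared without Cr10 replicate 3 and were chr22:37484189-37484454 and chr1:162246350-162246618, named after their values were seen. For summits the fit on the 6 libraries of dCas9 alone called 22 regions, among them the named chr15:67442434-67443128, chr11:120381716-120382607 and chr1:29157300-29157744, and the mean summit of a region called 2, without the chromosome 15 region; that region was called with each library left out (adjusted p 0.000102 to 0.00128). Regions held by 1 gRNA alone numbered 581 to 2325 with 1 library left out, against 236, and the similarity within less that between gRNAs ran from −0.0318 to 0.0141, against −0.0124. The cause of these moves was not tested.

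Rank differences changed sign with a library left out at HS1 (−22.4 to 2.47 points), HS3 (−3.70 to 10.1), HS4 (−10.2 to 5.15), 3′ HS1 (−5.07 to 4.40), HBG2 (−4.87 to 4.35) and HBG1 (−4.69 to 0.64). With percentiles in the deposited lists they were 1.51 at HS4, 1.65 at 3′ HS1, 1.23 at HBG2 and 2.57 at HBG1, and ranked by −log10 p they were 0.766 at HBG2 and 1.03 at HBG1. Summit differences changed sign at HS1 (−6.83 to 14.2 bp), HBG2 (−18.2 to 13.7) and 3′ HS1 (−27 to 1.5). Without a sign change, rank differences ran from 3.35 to 8.22 points at HBD and −14.1 to −2.02 at HS5, and summit differences from 23.8 to 48.8 bp at HBG1, 4.17 to 18.7 at HS3, 0.667 to 9.17 at HS4, 6.17 to 24.2 at HS5 and 2.17 to 7.17 at HBD. Of 459 further values for the 40 named regions, 0 changed sign. These regions were picked by low p in the same data, and their groups did not overlap. Leaving out a library could therefore not change a sign, and the block and the fit of 6 libraries keep the difference by design. For those settings the count says nothing about stability. Other alternatives could have changed a sign and did not, but sizes moved. At chr16:87350440-87351636 the log2 width difference went from −0.91 to −0.17 with all peaks of the region.

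Same-numbered Cr4 and Cr10 libraries correlated at 0.0311, 0.00448 and 0.286 in rank deviations and −0.13, 0.12 and 0.44 in pileup, highest for replicate 3. Pairs of different number ran from −0.223 to 0.192 in rank and from −0.507 to 0.306 in pileup. The values of same-numbered replicates 1 and 2 lay inside those ranges, so the numbers did not clearly pair the libraries. With the replicate block 0, 0, 0 and 1 regions were called in rank, pileup, width and summit. Unadjusted limma p was under 0.05 at 817 pileup regions (400 without the block) and 0.0501 for the HS2 summit (0.0387). The balanced block leaves the differences (−10.5 points, −45 bp) unchanged. Weak peaks carry few fragments, as the 19 to 48 at the Cr10 summits on chromosome 15, which limits the precision of their folds and summits.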
